A study of Mus musculus with 14 samples.

Results

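The respiratory chain genes were studied in a list of H3K27ac sites from iMEF cells, which are immortalised mouse embryo fibroblasts. H3K27ac is acetylation of lysine 27 of histone H3, a mark of active promoters and enhancers. Members were the protein-coding genes of chromosomes 1 to 19 and X whose symbols begin with the names of the nuclear-encoded subunits of complexes I to V (Nduf, Sdh, Uqcr, Cox4 to Cox8 and Atp5). These were 94 of 21755 protein-coding gene records, with 93 symbols, since Atp5o was the symbol of 2 records. Sites were assigned by their middle, which had to be at most 1 kb from a transcription start site (TSS), whichever annotated transcript of the gene it belonged to.

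Ash2l was floxed in these cells and its exon 4 had been deleted through Cre-ER. A construct for human ASH2L with an FKBP12F36V tag, brought in with a lentivirus, was present in the cells of all samples, the controls included. According to the methods the cells came from a selected clone, NG3. The 12 H3K27ac libraries comprised 2 from cells without dTAG, labelled WT, and 2 from each of the 5 dTAG times of 30 min, 2, 4, 8 and 16 h. dTAG is a compound that directs the tagged ASH2L to degradation. Inputs without antibody came from control cells and from cells treated for 16 h. The list analysed here held 122228 positions from all these samples together, with no value for a sample or a time. There was thus no replicate error, the read depth was unknown, and no time was compared with control. A site present at any time is in the list, and its width is not a signal level.

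The respiratory chain sits in the inner mitochondrial membrane. Complexes I to IV pass electrons from NADH and succinate to oxygen while complexes I, III and IV pump protons, and complex V, the ATP synthase, uses the proton gradient to make ATP. Most subunits are encoded in the nucleus and expressed in nearly every cell type, whereas several subunits of complex IV, cytochrome c oxidase, have further isoforms restricted to heart and skeletal muscle, testis, lung or hypoxic cells.

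Fibroblast character was checked first. Of 9 fibroblast marker genes, 8 had a site, compared to 1 of 8 muscle genes and 0 of 6 testis genes. Of all protein-coding genes 54.7% had a site, and of those without a CpG island 18.9%. The testis genes and all muscle genes but Tnni3 and Ckm had no CpG island, so that their low counts are a weak check. The fibroblast gene without a site by this rule was Col1a1, whose 5′ end nevertheless lay within a site. The muscle gene with a site was Actn2, with a site of 266 bp.

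Sites were found at 82 of the 94 respiratory chain genes (87.2%, 95% Wilson interval 79.0 to 92.5%), compared to 54.7% of all protein-coding genes. Intervals here cover counting error only, and genes are not replicates of a condition. Among other housekeeping groups, 74 of 80 genes of cytosolic ribosomal proteins (92.5%) and 34 of 39 genes of proteasome subunits (87.2%) had a site. A CpG island (CGI) near a TSS was present at 78 of the 94 genes (83.0%), compared to 58.3% of all protein-coding genes. With a CGI, 75 of 78 members (96.2%) had a site, the background being 80.4%. Without a CGI, 7 of 16 had a site, compared to 18.9% of all genes without a CGI. These 7 genes were Ndufa9, Ndufc1, Ndufs8, Uqcr10, Uqcrb, Cox7b and Atp5j2.

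The complexes differed in the number of genes without a site. Complex I had sites at 35 of 36 genes, its assembly factors Ndufaf1 to Ndufaf8 at 8 of 8, complex II at 4 of 4, complex III at 7 of 8, complex IV at 12 of 20 and complex V at 15 of 17. Atp5s, which encodes coupling factor B and is no subunit of the enzyme, also had a site. In complex IV all 8 genes without a site were tissue-specific isoforms. The other 12 genes of complex IV each had a site. Outside the isoforms, 82 of 86 members (95.3%) carried one.

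**Figure D1:**
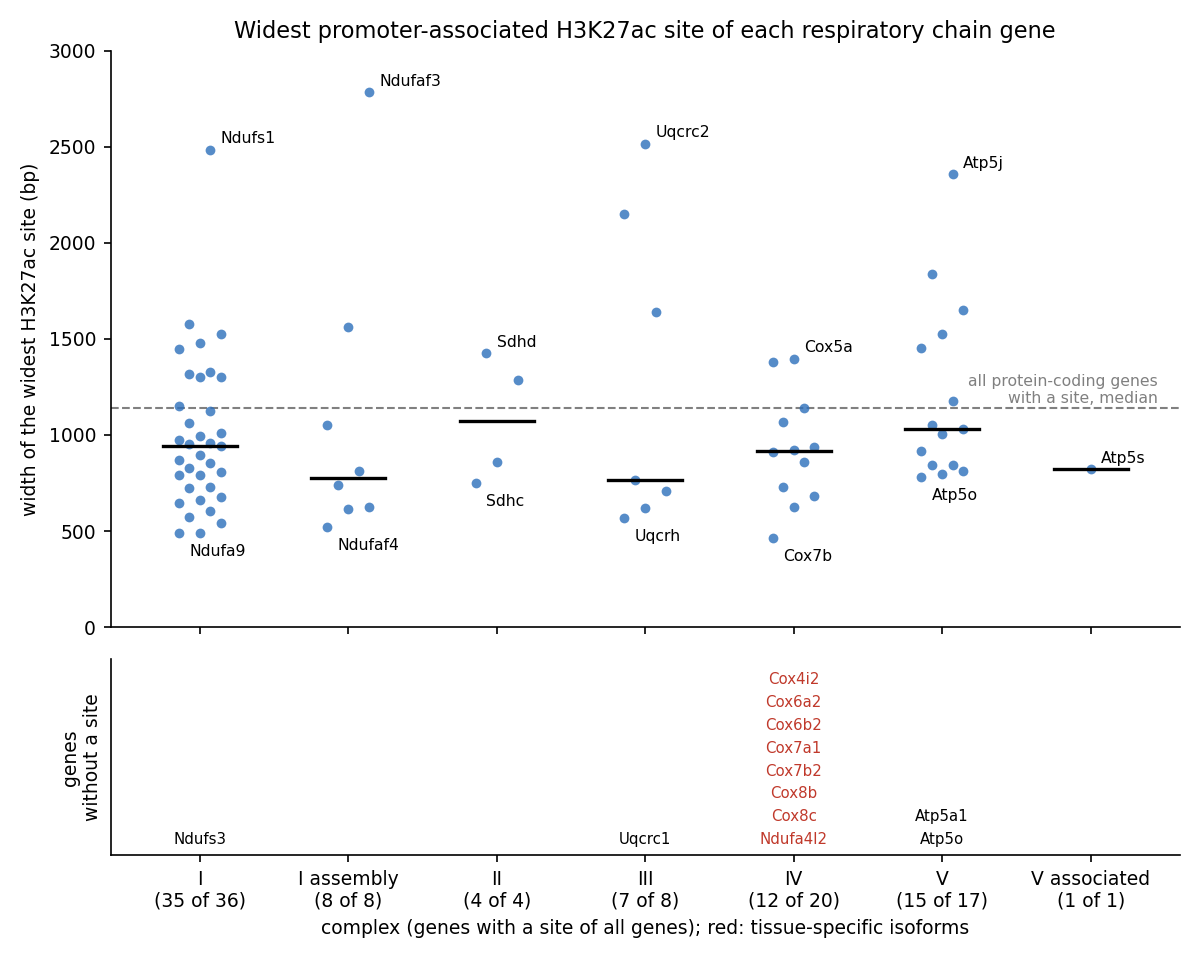
Width in bp of the widest H3K27ac site of each respiratory chain gene (points), by complex, with the median of each complex as a bar and the median of all protein-coding genes with a site, 1141 bp, as a dashed line. Genes without a site are named in the lower panel, where the 8 tissue-specific isoforms (red) all belong to complex IV.

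The 12 members without a site fell into 3 kinds. The first were the isoforms Cox4i2, Cox6a2, Cox6b2, Cox7a1, Cox7b2, Cox8b, Cox8c and Ndufa4l2. The second were Ndufs3, Uqcrc1 and Atp5a1, which encode widely expressed subunits and had a CGI each. The third was the longer Atp5o record (chr16:91684398-91926982). This record has 1 TSS of its own without a site, but 52 sites lay within its span. The shorter Atp5o record, for the peripheral stalk subunit OSCP, had 2 sites. The closest cases outside the distance limit were Ndufa4l2, with the middle of a site 2660.5 bp from its TSS, and Cox4i2 with 3422 bp.

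The isoforms were compared with their ubiquitous partners. Of 8 isoforms, 0 had a site and 0 had a CGI. With 8 genes, a share of 0 has an upper Wilson bound of 32.4%. This interval includes the share of all protein-coding genes without a CGI that had a site, 18.9%. Of the 7 partners, 7 had a site and 6 had a CGI. Cox7b, on the X chromosome, was the partner without a CGI, and its site of 463 bp was the narrowest widest site of all members. The comparison was the same under every alternative way of assigning sites that was run, with 0 isoforms gaining a site.

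Cox4i1 encodes the ubiquitous subunit 4 (chr8:120668222-120674207), and it had 2 sites of 678 and 909 bp on either side of its 5′ end. Its isoform Cox4i2 (chr2:152754173-152765037), known from lung and from cells at low oxygen, had the nearest site 3886 bp downstream of the 5′ end, within the gene body. This site measured 915 bp. Cox4i2 also lay in a neighbourhood rich in sites, with 30 sites within 50 kb that were away from any TSS, compared to 1 for Cox4i1 and a median of 2 over the members with a site. This was the largest number of all 94 members. Its promoter of 300 bases was GC rich (63.3%), with an observed to expected CpG ratio of 0.54, and that of Cox4i1 had 75.3% GC.

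Cox6a1 (chr5:115345642-115348981) had 2 sites, of 860 and 374 bp. Its heart and skeletal muscle isoform Cox6a2 (chr7:128205435-128206387) was 29647 bp from the nearest site. Cox7a2 (chr9:79755361-79759878) had 2 sites of 624 and 473 bp, whereas the muscle isoform Cox7a1 (chr7:30184144-30186078) was 8933 bp from the nearest, a site of 2032 bp at Capns1. Cox8a (chr19:7215153-7217616) had sites of 1069 and 216 bp. The muscle isoform Cox8b (chr7:140898945-140900446) and the testis isoform Cox8c (chr12:102899316-102900526) were 17642 and 19817 bp from a site.

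Cox6b1 had 1 site of 731 bp, and its testis isoform Cox6b2 (chr7:4751792-4753094) was 11516 bp from the nearest site. Cox7b2 (chr5:71442824-71548205), also known from testis, lay in a stretch of 2530 kb without a site, with the nearest 574349 bp away. Ndufa4, which despite its symbol encodes a subunit of complex IV, had 3 sites of 921, 286 and 258 bp. Its hypoxia-induced relative Ndufa4l2 (chr10:127514967-127517154) was the isoform closest to a site, at 2037 bp upstream. That site of 1248 bp overlapped 2 CGIs, both over 1 kb from the TSS.

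**Figure D2:**
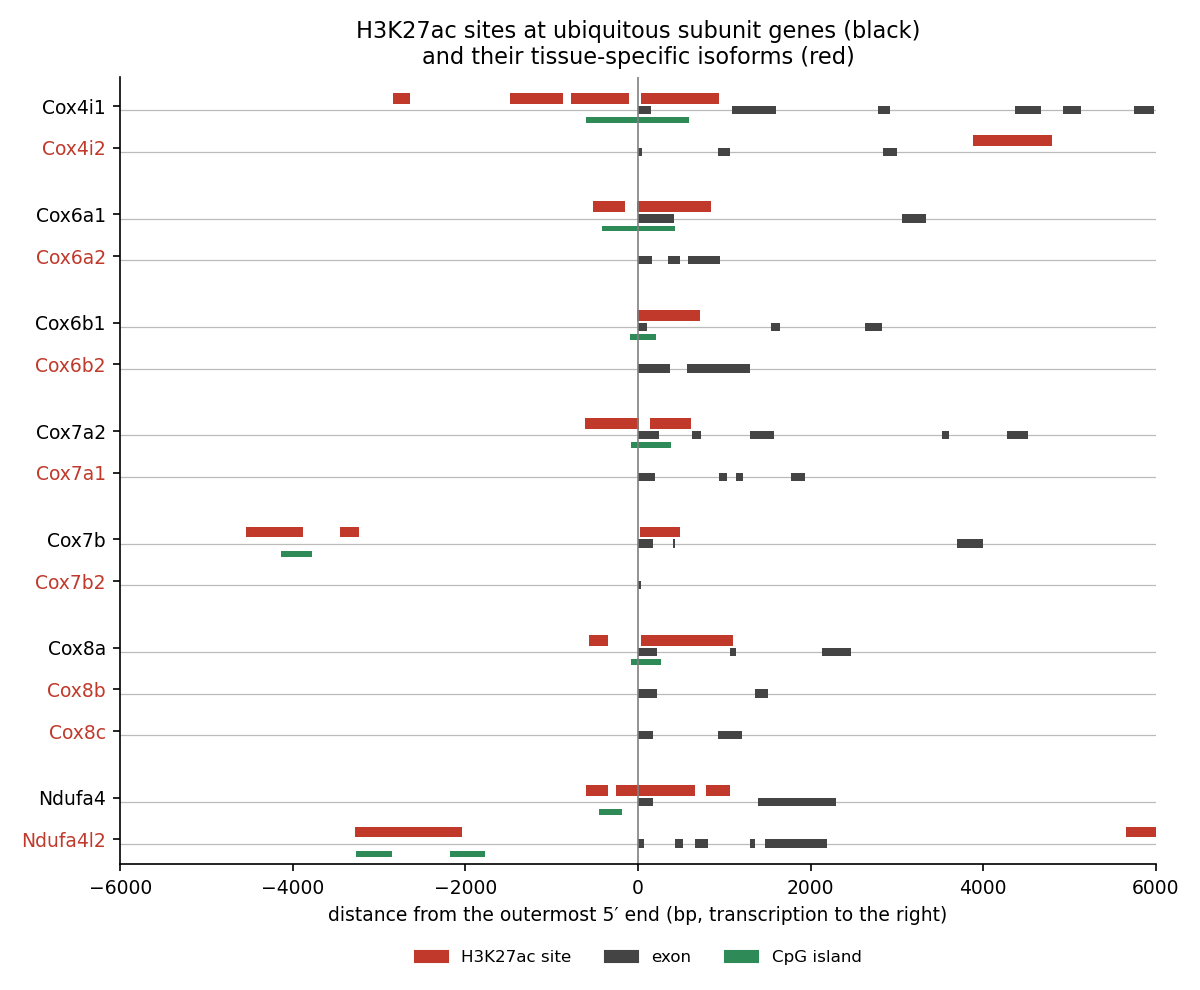
H3K27ac sites (red bars), exons (black) and CpG islands (green) within 6000 bp of the outermost 5′ end of the ubiquitous subunit genes (black names) and of their tissue-specific isoforms (red names), with transcription to the right. Each ubiquitous gene has a site at or next to its 5′ end, and each of the 8 isoforms has none there.

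Sequences upstream of the 5′ end show how the promoters of such pairs differ in CpG dinucleotides. The 100 bases before the outermost 5′ end are given from GRCm38 on the strand of transcription, and capitals mark the motif letters defined with the motif counts. The windows were chr5:115348982-115349081 (minus strand) for Cox6a1, chr7:128206388-128206487 (minus strand) for Cox6a2, chr9:79759879-79759978 (minus strand) for Cox7a2, chr7:30184044-30184143 (plus strand) for Cox7a1, chr19:7217617-7217716 (minus strand) for Cox8a, chr7:140900447-140900546 (minus strand) for Cox8b and chr2:152754073-152754172 (plus strand) for Cox4i2. None overlapped an annotated exon. The window of Cox4i1 overlapped exons of the neighbour Gm27021 and is not shown.
Cox6a1: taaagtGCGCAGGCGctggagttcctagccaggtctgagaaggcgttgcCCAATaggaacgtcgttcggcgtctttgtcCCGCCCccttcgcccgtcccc
Cox6a2: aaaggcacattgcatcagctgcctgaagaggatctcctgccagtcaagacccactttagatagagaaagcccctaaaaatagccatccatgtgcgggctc
Cox7a2: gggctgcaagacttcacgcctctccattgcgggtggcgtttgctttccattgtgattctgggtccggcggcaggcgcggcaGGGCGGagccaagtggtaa
Cox7a1: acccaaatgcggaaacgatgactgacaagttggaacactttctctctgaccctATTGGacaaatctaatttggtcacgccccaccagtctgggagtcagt
Cox8a: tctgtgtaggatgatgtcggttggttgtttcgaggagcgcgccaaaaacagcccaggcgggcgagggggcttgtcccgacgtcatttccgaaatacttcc
Cox8b: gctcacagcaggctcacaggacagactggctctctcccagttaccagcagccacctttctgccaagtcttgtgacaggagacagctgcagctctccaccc
Cox4i2: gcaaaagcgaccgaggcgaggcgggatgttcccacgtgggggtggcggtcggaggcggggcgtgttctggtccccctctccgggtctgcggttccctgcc

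The windows held 10 CpG dinucleotides for Cox6a1 and 1 for Cox6a2, 8 for Cox7a2 and 3 for Cox7a1, and 9 for Cox8a and 0 for Cox8b. Cox4i2 stood apart from these muscle isoforms with 11 CpG dinucleotides and a GC content of 72%, and it still had no CGI by the criteria used. Over the 300 bases of each promoter, the median observed to expected CpG ratio was 0.37 for the isoforms and 0.83 for their partners. For Cox7b and Cox7b2 the order was the opposite, with 0.37 for the ubiquitous gene and 0.56 for the isoform.

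Ndufs3, Uqcrc1 and Atp5a1 lay in long stretches without a site. Ndufs3 (chr2:90894634-90904827) encodes a core subunit of complex I. It lay in a site-free stretch of 206 kb that held the 5′ ends of 5 coding genes, 4 of them with a CGI (C1qtnf4, Celf1, Kbtbd4 and Ndufs3), and 0 of these 4 had a site. Uqcrc1 (chr9:108936633-108949623), a core protein of complex III, lay in a stretch of 169 kb with 4 CGI genes (Celsr3, Nckipsd, Slc26a6 and Uqcrc1), of which 0 had a site. The stretch around Atp5a1 (chr18:77773729-77782869), which encodes the alpha subunit of the F1 part of ATP synthase, measured 619 kb and held 6 CGI genes, of which 1 had a site. Of the 12683 coding genes with a CGI, 1322 had their outermost 5′ end in a site-free stretch of over 150 kb. Positions may be missing from the list as analysed here, so that a site at these 3 genes in the cells is not excluded, and why they had none was not tested.

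The 82 genes had 140 sites with a summed width of 113691 bp. A single site was present at 36 genes and 2 sites at another 36, whereas 8 genes had 3 and 2 genes had 4. Of all 11908 coding genes with a site, 5759 had a single site, 4253 had 2, 1181 had 3 and 408 had 4. The median was 2 sites per gene in both groups. The genes with 3 sites were Atp5l, Ndufa4, Ndufa7, Ndufaf4, Ndufaf7, Ndufb10, Ndufv3 and Uqcr10. Atp5d, for the delta subunit of F1, had 4 sites of 1007, 458, 652 and 959 bp between -116 and 4664 bp from its 5′ end. Atp5g2, for subunit c, had 4 sites of 1839, 1007, 857 and 235 bp. When sites less than 1 kb apart were merged, the 140 sites became 81 regions.

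The widest site per gene measured 919 bp in the median (95% interval of the median 827 to 1032, n = 82), compared to 1141 bp (1125 to 1159) over all 11908 coding genes with a site. It was 1614 bp (1384 to 1901) for ribosomal protein genes and 999.5 bp (803 to 1223) for proteasome genes. The interval of the members overlapped with that of the proteasome genes but not with those of all coding genes and ribosomal protein genes. When sites less than 1 kb apart were merged, the medians were 1457 bp (1288 to 1651) for members, 1615.5 bp (1593 to 1637) for all coding genes, 2694 bp (2483 to 3314) for ribosomal protein genes and 1387 bp (1198 to 1747) for proteasome genes. The intervals of members and all coding genes then overlapped. A widest site of over 2 kb was present at 5 members (6.10%, interval 2.63 to 13.5%), compared to 16.3% of all coding genes with a site. At the other end, 3 members (3.66%) had a widest site under 500 bp, with an interval of 1.25 to 10.2% that includes the background of 9.77%.

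Widths overlapped between the complexes. Medians were 944 bp for complex I (range 488 to 2486), 1075 bp for complex II (750 to 1426), 764 bp for complex III (567 to 2516), 915 bp for complex IV (463 to 1397) and 1032 bp for complex V (782 to 2357). The 95% intervals of the medians were 790 to 1062 bp for complex I, 685 to 1143 bp for complex IV and 842 to 1525 bp for complex V, so that these 3 did not differ beyond their intervals. The assembly factors of complex I had a median of 777 bp.

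In complex I the 7 core subunits, which carry the flavin and the iron-sulfur clusters, had 6 genes with a site and a median width of 1007.5 bp. Ndufs1, for the largest iron-sulfur subunit (chr1:63143596-63176833), had the widest site of complex I with 2486 bp. The narrowest core site was that of Ndufv1 with 491 bp. All 29 accessory subunits had a site, with a median of 869 bp and a range from 488 bp at Ndufa9 to 1524 bp at Ndufb9. The widest site of any member, 2785 bp, was that of the assembly factor Ndufaf3.

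Complex II, succinate dehydrogenase, had sites at Sdha and Sdhb, which oxidise succinate, and at the membrane anchors Sdhc and Sdhd. Sdhd (chr9:50596357-50603812) had the widest with 1426 bp and Sdhc (chr1:171127165-171150603) the narrowest with 750 bp. In complex III the core protein gene Uqcrc2 (chr7:120635176-120659524) had a site of 2516 bp, in contrast to the other core protein gene Uqcrc1 without a site. The hinge protein gene Uqcrh (chr4:116066965-116075071) was the narrowest with 567 bp. Uqcrfs1, for the Rieske iron-sulfur protein, had 622 bp.

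In complex IV the widest site was at Cox5a (chr9:57521274-57532426) with 1397 bp. In complex V it was at Atp5j (chr16:84827866-84835625), for coupling factor 6, with 2357 bp, and this site was also assigned to the neighbour Gabpa. The narrowest of complex V was at Atp5o with 782 bp. The genes of the proton-carrying c ring, Atp5g1, Atp5g2 and Atp5g3, encode the same mature protein and had widths of 1525, 1839 and 1651 bp. All 3 were above the median of complex V and above 4 of 4 F1 genes with a site, which ranged from 842 to 1178 bp. This difference was noticed in the data and was not tested.

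All 3 members on the X chromosome had a site. Ndufa1 and Ndufb11 of complex I had 2 sites each, with the widest at 790 bp in both, and Cox7b had 1 of 463 bp.

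The position of sites was then related to the 5′ end. The outermost 5′ end of 48 of the 82 genes (58.5%) lay inside a site, compared to 65.7% of all coding genes with a site. In a further 22 (26.8%) it lay in the gap between flanking sites, compared to 15.0% in the background. A site was present on the downstream side alone in 11 genes (13.4%, background 10.9%) and on the upstream side alone in 0 (background 1.83%). Counting any annotated TSS, 76 of the 82 genes (92.7%) had a TSS inside a site, compared to 90.7% in the background, so that members were not below the background by this count. No intervals are given for these shares of position. Whether the lower share at the outermost 5′ end exceeds counting error was not tested. Of the 34 genes with the outermost 5′ end outside every site, the farthest was Cox7a2l, for a factor of supercomplex assembly, whose site of 1380 bp began 2278 bp downstream at an internal TSS. Next were Ndufa13 with 226 bp and Ndufs4 with 152 bp, and the other 31 were between 2 and 106 bp from a site.

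The gap over the 5′ end measured 137 bp in the median of these 22 genes, from 72 bp at Ndufaf7 to 605 bp at Ndufa13. In the background of 1790 genes with such a gap the median was 172 bp. The median distance from the 5′ end was 96 bp to the upstream site and 30 bp to the downstream site. The same asymmetry was present in the background, with 124 and 32 bp, and at ribosomal protein genes, with 89.5 and 32.5 bp, and proteasome genes, with 113 and 12 bp. Complex I held 13 of the 22 genes, among them Ndufa7 (77 bp), Ndufc1 (94 bp) and Ndufs5 (104 bp).

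Across the 82 genes, the share of genes whose base lay in a site dropped to 36.6% at -49 bp from the 5′ end, that is on the upstream side, and peaked at 97.6% at 152 bp downstream. For all coding genes with a site the lowest value near the 5′ end was 49.3% at -62 bp, and the downstream peak was 86.6%. At 500 bp downstream 91.5% of members were covered, compared to 78.6%. The order was the opposite farther into the gene, with 15.9% compared to 32.7% at 1200 bp and 3.66% compared to 15.1% at 2000 bp. Proteasome genes had a similar course, with 29.4% at -55 bp, a peak of 94.1%, 23.5% at 1200 bp and 8.82% at 2000 bp. Ribosomal protein genes were covered in 79.7% at 1200 bp. The cause of these differences was not tested.

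**Figure D3:**
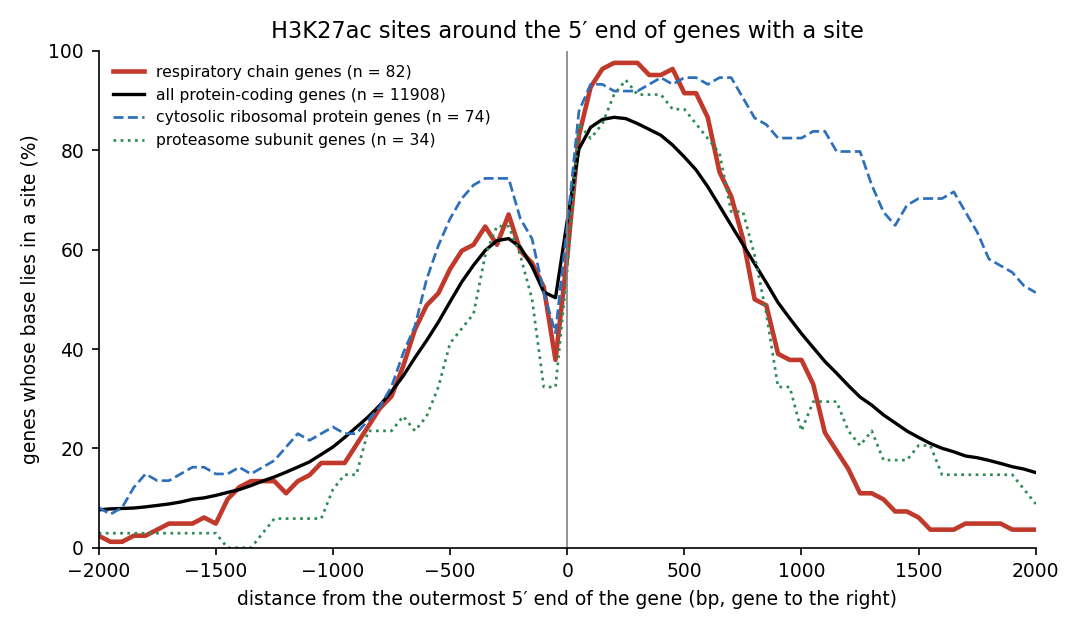
Percentage of genes whose base lies in an H3K27ac site, by distance in bp from the outermost 5′ end, for genes with a site: respiratory chain genes (n = 82), all protein-coding genes (n = 11908), cytosolic ribosomal protein genes (n = 74) and proteasome subunit genes (n = 34). The respiratory chain genes have a dip just upstream of the 5′ end, a peak of 97.6% downstream and a lower share than all coding genes beyond 1000 bp, and the proteasome subunit genes have a similar course.

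Sites away from promoters were counted around the members. Within 10 kb of the outermost 5′ end, members with a site had a mean of 0.756 sites that were away from any TSS, compared to 1.26 for all coding genes with a site, and 54 of 82 (65.9%) had none, compared to 53.1%. Within 50 kb the median was 2 compared to 4. Proteasome genes were close to the members, with a mean of 0.971 within 10 kb, 61.8% with none and a median of 3 within 50 kb. Members with many such sites within 10 kb included Ndufb9 with 7, Ndufa13 with 6 and Atp5h with 5. All 8 complex I assembly factors had 0 such sites within 10 kb.

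A head-to-head coding neighbour, that is a gene in the opposite direction with its 5′ end within 1 kb and pointing away, was found for 23 of the 94 members (24.5%), compared to 6.84% of all coding genes. All 23 had a site, and of all 1487 coding genes with such a neighbour 1366 (91.9%) had one. All 23 neighbours had a site too and each pair shared at least 1, which the 1 kb window makes likely at these distances. Over all members, 55 of 140 sites (39.3%) were assigned to another coding gene as well, compared to 9.98% of sites at coding genes. A shared site can enter a group of genes through either gene but counts once in the background. This comparison therefore overstates the difference. The distance between the 5′ ends ranged from 10 to 336 bp with a median of 99 bp. The closest were Ndufa7 and the ribosomal protein gene Rps28 at 10 bp, Ndufb9 and Tatdn1 at 18 bp, Sdha and Ccdc127 at 29 bp, and Ndufa8 and Morn5 at 52 bp. Complex II had such a neighbour at 3 of 4 genes and the assembly factors at 4 of 8, compared to 8 of 36 for complex I, 3 of 8 for complex III, 2 of 20 for complex IV and 2 of 17 for complex V.

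The bases between the 5′ ends were covered by a site in full in 6 of the 23 pairs, in part in 12 and not at all in 5. Full cover was seen for Sdha, Sdhd, Ndufb3, Ndufb9, Ndufaf5 and Uqcrq. At Ndufa7 and Rps28 the 9 bases between the 5′ ends lay in a gap of 77 bp between sites of 1329 and 734 bp. Since the list has no strand, a site shared by such a pair cannot be assigned to either gene. This concerns neighbours with restricted expression elsewhere, such as Gdf9, an oocyte growth factor gene, whose single site was shared with Uqcrq.

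**Figure D4:**
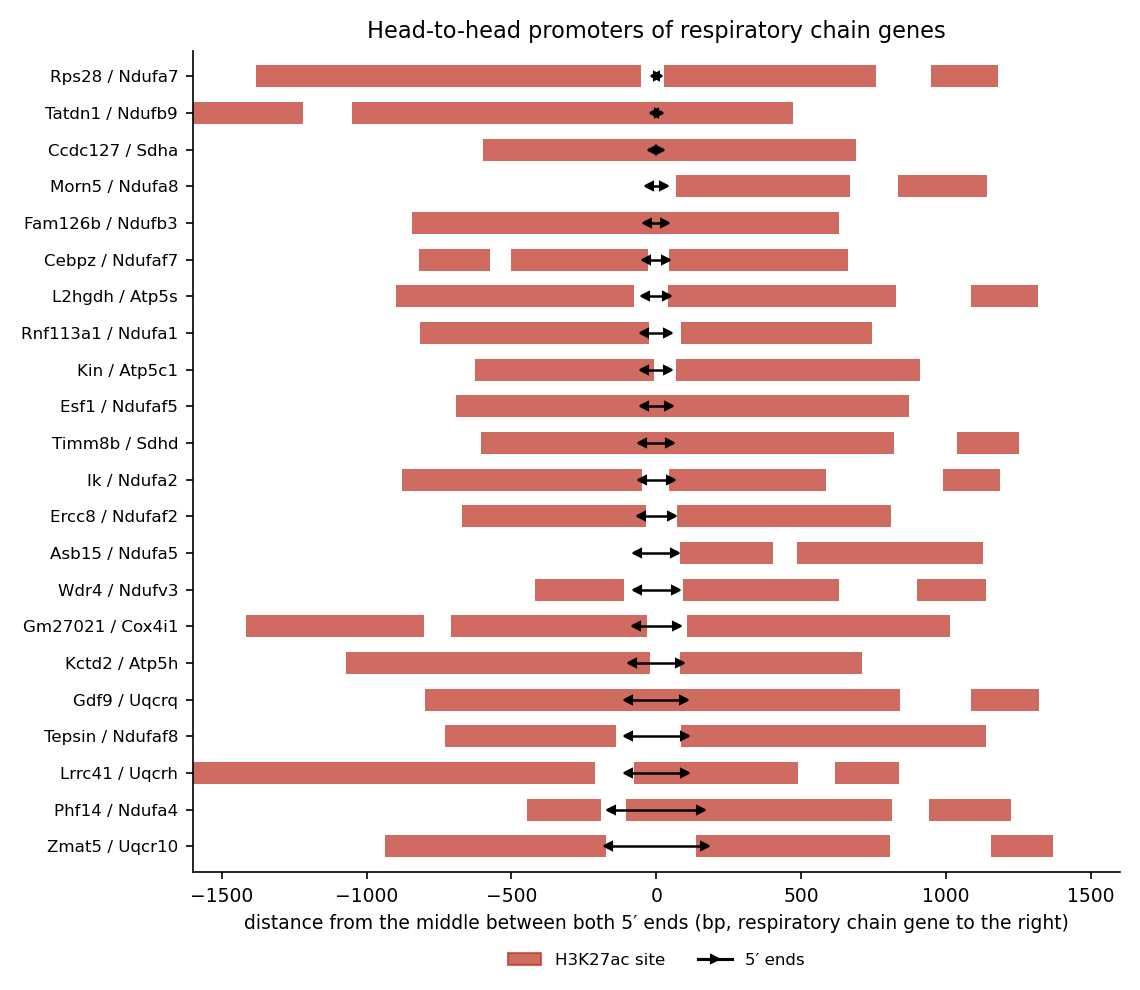
H3K27ac sites (red bars) around the middle between the 5′ ends (arrowheads) of 22 of the 23 head-to-head pairs, in bp, with the respiratory chain gene to the right, ordered by the distance between the 5′ ends from 10 bp (top) to 336 bp (bottom). In 6 pairs the bases between the 5′ ends lie wholly in a site, and in the others a gap in the sites lies over part or all of them.

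The pair of Sdhd and Timm8b, a gene of mitochondrial protein import, is shown as an example in which 97 bases separate the 5′ ends and all lie in the site of 1426 bp (chr9:50603813-50603909, GRCm38, minus strand, read towards Sdhd). Capitals mark an ETS motif and an SP1 motif, each on the strand where its letters occur.
Sdhd: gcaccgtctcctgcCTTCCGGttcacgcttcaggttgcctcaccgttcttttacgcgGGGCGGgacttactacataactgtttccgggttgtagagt

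Motifs of factors known to act at such promoters were searched on both strands of the 300 bases from 250 upstream to 50 downstream of the outermost 5′ end. The letters were GCGCANGCG for NRF1, a regulator of respiratory genes, CCGGAAG for ETS factors such as GABP, AANATGGCG for YY1, CAAGGTCA for the estrogen-related receptors (ERR), GGGCGG for SP1, CCAAT for the CCAAT box and TATAAA for the TATA box. Of 203 matches at the members, 0 overlapped a match of another motif. A match is a description of the sequence and no measure of binding.

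NRF1 letters were present in 17 of 94 promoters (18.1%), compared to 8.03% of all coding promoters, and ETS letters in 18 (19.1%), compared to 10.9%. YY1 letters were found in 5 (5.32%, background 2.92%) and ERR letters in 4 (4.26%, background 1.46%). The shares of SP1 letters (40, 42.6%, background 43.4%), CCAAT (38, 40.4%, background 38.9%) and TATA letters (12, 12.8%, background 12.7%) were close to the background. Since CpG-rich promoters hold more GC-rich motifs, genes with a site were also compared with each other. NRF1 letters were then present in 19.5% of 82 members (12.4 to 29.4%) and 13.04% of all coding genes with a site (12.4 to 13.7%), and ETS letters in 21.95% (14.4 to 32.1%) and 17.3% (16.7 to 18.03%), with intervals that overlapped. For SP1 they did not overlap, with 41.5% (31.4 to 52.3%) of members and 60.3% (59.5 to 61.2%) of all coding genes with a site. For ERR the shares were 4.88% (1.91 to 11.9%) and 1.07% (0.905 to 1.28%). These intervals did not overlap either, but the share of members rests on 4 genes, Ndufs5, Sdhd, Atp5g3 and Atp5l.

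The 17 members with NRF1 letters were Ndufa8, Ndufa11, Ndufb4, Ndufs5, Ndufs7, Ndufaf4 and Ndufaf5 of complex I and its assembly, Sdha and Sdhd of complex II, Uqcr11 and Uqcrc1 of complex III, Cox6a1 of complex IV, and Atp5g3, Atp5h, Atp5k, Atp5l and Atp5mpl of complex V. All of these but Uqcrc1 had a site. Sdha and Cox6a1 had the most matches, 3 each. The 26 matches lay between positions -241 and 40 relative to the 5′ end, with a median of -61. Of all members, 16 held none of the 7 motifs. No share over all coding promoters is given for this count, so that it cannot be called low or high. None of the 8 isoforms had NRF1, ETS, YY1 or ERR letters. The shares over all coding promoters were 8.03, 10.9, 2.92 and 1.46%. All are below the upper Wilson bound of 32.4% for 0 of 8, so that the isoforms are not set apart by this count.

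The NRF1 letters are shown for members in which they fell within 100 bases upstream of the 5′ end outside annotated exons, where the Cox6a1 window given with the isoform pairs also has them. The windows from GRCm38 were chr4:123718203-123718302 (minus strand) for Ndufs5, chr10:80249021-80249120 (plus strand) for Ndufs7, chr11:115419963-115420062 (minus strand) for Atp5h and chr12:111966978-111967077 (minus strand) for Atp5mpl. Capitals mark NRF1, SP1 and CCAAT letters.
Ndufs5: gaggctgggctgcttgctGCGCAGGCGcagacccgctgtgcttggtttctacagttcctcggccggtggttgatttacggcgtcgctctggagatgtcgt
Ndufs7: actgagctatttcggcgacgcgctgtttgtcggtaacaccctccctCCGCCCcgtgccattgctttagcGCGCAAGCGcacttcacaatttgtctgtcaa
Atp5h: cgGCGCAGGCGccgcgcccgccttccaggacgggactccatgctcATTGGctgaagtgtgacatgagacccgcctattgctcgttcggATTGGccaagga
Atp5mpl: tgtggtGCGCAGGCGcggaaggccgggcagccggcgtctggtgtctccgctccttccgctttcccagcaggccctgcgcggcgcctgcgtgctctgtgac

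In these windows the NRF1 letters began at position -82 from the 5′ end at Ndufs5, at -31 at Ndufs7, at -98 at Atp5h and at -94 at Atp5mpl. At Ndufs7 the 5′ end lay 51 bp before the site, and at Ndufs5 it lay in a gap of 104 bp between sites, so that in both genes the NRF1 letters fell outside the sites. At Atp5mpl the site began at -68 bp, and at Atp5h the sites ended at -106 bp and began again at -2 bp. The NRF1 letters thus lay outside the sites in all 4 windows. This does not hold for all 17 members with NRF1 letters. At Sdha, Sdhd and Ndufaf5, which are not among these windows, the letters lay inside a site.

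**Figure D5:**
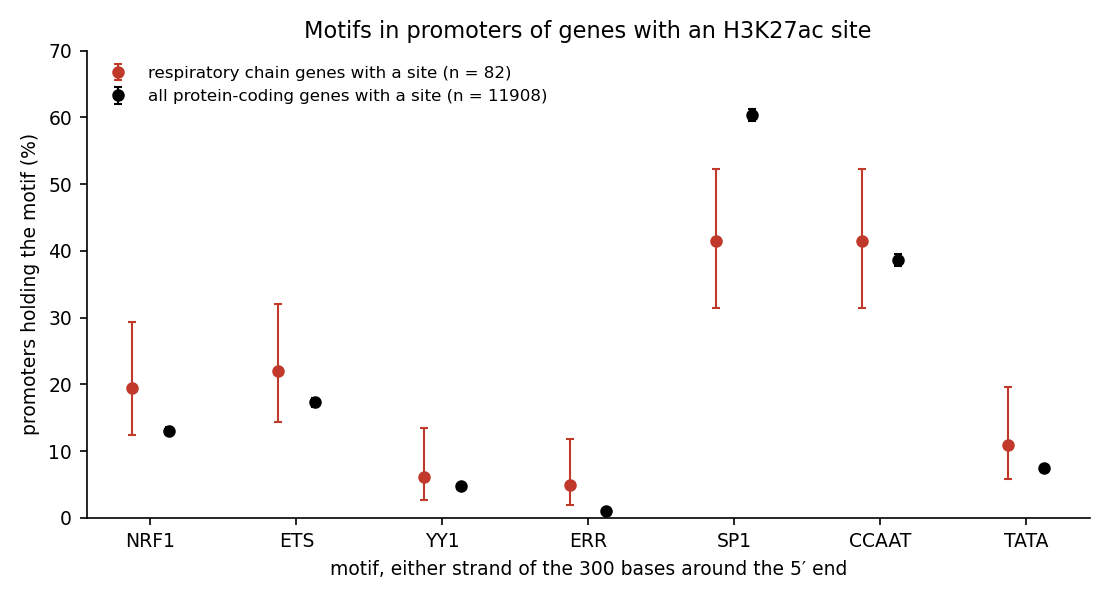
Percentage of promoters (300 bases) that hold each of 7 motifs, for respiratory chain genes with a site (red, n = 82) and all protein-coding genes with a site (black, n = 11908), with 95% Wilson intervals as bars. SP1 and ERR are the motifs with intervals apart. SP1 has a lower share in respiratory chain genes, 41.5% compared to 60.3%. ERR has a higher share, 4.88% compared to 1.07%, which rests on 4 members.

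Other genes of the pathway were examined as a separate list of 60, of which 56 (93.3%) had a site. The share was 54.7% of all protein-coding genes and 80.4% of those with a CGI, and 54 of the 60 (90%) had a CGI. Of 38 assembly factors 36 had a site, the exceptions being Cox20 and the complex II factor Sdhaf1, whose nearest site was 1012 bp away. Of 7 electron carriers and further subunits 6 had a site. Cycs, the somatic cytochrome c gene, had 2 sites with the widest at 809 bp, whereas the testis cytochrome c gene Cyct had 0. Cyc1, for cytochrome c1 of complex III, had 2 with the widest at 1050 bp. Of 15 regulators of mitochondrial genes 14 had a site. Nrf1 had 3 sites and a widest of 1993 bp, Gabpa 2357 bp, Esrra 1515 bp and Tfam, the packaging factor of mitochondrial DNA, 1148 bp. Among the coactivators, Ppargc1a had no site, with the nearest at 14560 bp. Its relatives Ppargc1b and Pprc1 had sites, the widest measuring 270 and 1363 bp.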

How the data were processed

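H3K27ac ChIP-seq was analysed in iMEF cells. According to the methods, reads were trimmed with Trim Galore and mapped to mm10 with BWA, filtered with SAMtools, replicates were merged with Picard, and narrow peaks were called with MACS. The peaks of all samples were joined. The authors deposited the joined peaks as positions (chromosome, start, end), with no other value. The caller's threshold and the way of joining were not given in the sources used here.

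Starts were read as counted from 0, since the narrowest sites then measured 200 bp. Positions are printed counted from 1. Genes were taken from GENCODE M21 and sequences from GRCm38.p6. CGIs were called from repeat-masked sequence as CpG runs of at least 200 bp, 50% GC and an observed to expected ratio of 0.6, which gave 16114. The 57 sites off chromosomes 1 to 19 and X were left out. No test was run, since no value per sample was analysed. Medians have order-statistic intervals and shares Wilson intervals, both at 95%. A site away from any TSS was one whose middle was over 1 kb from every annotated TSS.

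Genes were named as those without a site, the isoforms and partners, the widest and narrowest per complex, those with at least 3 sites, those farthest from a site, the closest head-to-head pairs, X-linked genes and genes with NRF1 letters. The c ring genes, Ndufaf3 and further examples were added after their values were seen. Some named items are not reported here. The members, lists and motifs were chosen with earlier results of these data known, and the background with merged sites was added after the data were seen. Procedures were tested on simulated data, where 200 of 200 planted sites, 50 of 50 islands and 100 of 100 motifs were recovered. Python 3.11.15, numpy 2.4.6, pandas 2.3.3, scipy 1.17.1, numba 0.67.0 and matplotlib 3.10.9 were used.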

Additional observations from a re-analysis of the deposited data

How the results depend on the processing

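Of 100 alternatives run over 21 results, 91 left the value within 1.5 times the reported one and 9 did not. Merging sites less than 1 kb apart turned 140 sites into 81 and raised the median width from 919 to 1457 bp, where the median of all coding genes with a site rose to 1615.5 bp. With any annotated TSS in place of the outermost 5′ end, 76 genes had a start inside a site in place of 48. With CGIs of at least 500 bp, 41 genes had a CGI in place of 78. A promoter of 500 bases upstream and 100 downstream gave 15 promoters with YY1 letters (from 5), 8 with ERR letters (from 4) and 19 with TATA letters (from 12). Promoters at the TSS nearest to a site gave 10 with YY1 and 8 with ERR letters. A longer promoter can hold more matches at any gene. Shares over all coding promoters are not given for these alternatives, so that their counts cannot be set against a background. The isoforms stayed at 0 with a site under all the ways of assigning sites that were run, and no way added a member. A window of 500 bp removed 1 member, the outermost 5′ end alone removed 2, Cox7a2l among them, and merging removed 4, among them Ndufaf3, Ndufb9 and Uqcrh. No paired analysis was possible because no site had a value per replicate, and for the same reason no replicate could be left out. Read depth was unknown, so that a gene without a site cannot be told apart from a site below the caller's threshold.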
